A study of Mus musculus with 20 samples.

Results

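ATP-binding cassette (ABC) efflux transporters were followed in the distal colon (DC) of mice fed resistant potato starch (RPS). The members were 10 genes, Abcg2, Abcg1, Abcg5, Abcg8, Abcb1a, Abcb1b, Abcc1, Abcc2, Abcc3 and Abcc4, of 26619 genes in the count table. All 10 were found and all 10 passed the filter on low counts, their counts lying between 40 and 9906 reads per mouse. Abcg2 was chosen by its own measured values, the higher read counts at 10% than at 0% RPS in earlier results of these data. The earlier results covered all 4 diets, so the differences of Abcg2 between diets are given as a description with no test. The other 9 genes were taken as further efflux pumps and not by a value of their own, although the panel was put together with earlier results known.

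RNA came from 20 C57BL/6 mice, 5 per diet, with 1 stranded poly(A) library per mouse. From 3 weeks of age, by the series description, all mice ate the Total Western Diet (TWD), which is modelled on nutrient intake in the United States, for 6 weeks. Thereafter 5 mice stayed on the TWD alone (0% RPS) and 5 each received the TWD with 2, 5 or 10% RPS for 3 weeks, RPS being the raw potato starch of the sample labels. The mice carried no transgene or deletion, and the tissue was whole DC, so fewer cells of a type and less RNA per cell cannot be told apart.

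ABC transporters use the energy of ATP to move substrates across membranes. In the gut many of them sit in the membrane of surface enterocytes or colonocytes and return drugs, plant compounds, bile acid conjugates, urate or plant sterols to the lumen, while others pass conjugates to the blood side. ABCG proteins are half-transporters that work as pairs. ABCG2, the breast cancer resistance protein, pairs with itself, and ABCG5 pairs with ABCG8.

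Sequencing depth was between 18429493 and 34974230 counted reads per mouse, and was highest without RPS, where the shallowest library held 31254832 reads, while the deepest at 10% RPS held 26595092. For 3 mice the 2 labels of the same sample disagreed on the diet. The description puts mouse RS10_717 at 5%, mouse RS10_725 at 10% and mouse RS10_748 at 2% RPS, where the treatment label has 2%, 5% and 10%. Grouping followed the description. Mouse RS10_721, on 5% RPS, stood apart because it carried RNA of exocrine pancreas, with 1108 CPM (reads of a gene relative to the scaled library total) of the lipase gene Pnlip against at most 2.66 CPM in 18 other mice and 90.7 CPM in mouse RS10_784 on 10% RPS. The 10 surface colonocyte markers summed to at least 4900.3 CPM in every mouse, which does not separate DC from other parts of the large bowel.

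Abcg2 lies on chr6:58561505-58672661 (GRCm39, plus strand) and is a protein-coding gene with several start sites. RefSeq holds 3 promoter windows for it, each with 250 bases before and 50 after a start site. The window nearest to the start of the canonical GENCODE transcript is shown because Abcg2 is the gene on which the comparison of diets turns. Its RefSeq start site is position 58617531, and that of the GENCODE transcript is 58617501. The window lies at chr6:58617281-58617580 of GRCm39, where the RefSeq letters (build GRCm38.p6) were found once. Capitals mark the short motifs found in it.
Abcg2 promoter window: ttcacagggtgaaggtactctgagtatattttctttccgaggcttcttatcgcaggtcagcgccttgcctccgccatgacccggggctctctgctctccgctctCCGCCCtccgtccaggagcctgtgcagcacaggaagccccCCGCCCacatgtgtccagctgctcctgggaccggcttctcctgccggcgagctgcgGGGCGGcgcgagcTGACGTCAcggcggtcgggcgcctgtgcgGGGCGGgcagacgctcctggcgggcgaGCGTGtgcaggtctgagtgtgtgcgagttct

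The search covered 11 motifs on both strands. The Abcg2 window held the GC box (GGGCGG) at 4 places, beginning 146 and 106 bases before the RefSeq start site on the minus strand and 50 and 8 bases before it on the plus strand. It held a full cAMP response element (TGACGTCA) beginning 37 bases before the start site, and the core bound by the aryl hydrocarbon receptor (GCGTG) beginning 19 bases after it. No match overlapped another. Of all 32851 RefSeq promoter windows of 300 bases, 35.7% held the GC box, 1.79% the cAMP response element and 32.4% the aryl hydrocarbon receptor core. A match describes the letters only.

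Abcg5 (chr17:84964851-84990494, minus strand) and Abcg8 (chr17:84983730-85007765, plus strand) stand head to head. Their canonical GENCODE transcripts start at positions 84990439 and 84990452, with 12 bases between the starts. RefSeq has the same start for Abcg5 but puts those of Abcg8 at 84990549 and 84983730. The stretch chr17:84990410-84990481 (GRCm39, plus strand) is shown because the pair moved together among the mice. Capitals mark the 12 bases between the GENCODE starts. The Abcg5 transcript runs to the left of them and the Abcg8 transcript to the right.
Abcg5 and Abcg8 start region: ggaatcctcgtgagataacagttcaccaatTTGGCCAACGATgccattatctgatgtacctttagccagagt

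RefSeq windows were matched for 7 of the 10 members, 11 windows in all. The GC box was also found in windows of Abcb1b and Abcc4 and in another window of Abcg2. The aryl hydrocarbon receptor core was also found in windows of Abcc4 and Abcg8. Of the other motifs searched, a TATA box (TATAAA, in 13.6% of all windows) was found in 2 further windows of Abcg2, beginning 41 bases and 1 base after the start site. It was also found in 1 window each of Abcg5 and Abcg8, which overlap and share that 1 site. The antioxidant response element (TGACNNNGC, 12.4%) was found in windows of Abcb1a, Abcc2 and Abcc4. The Abcb1a window belongs to a RefSeq start site at position 8617091, outside the GENCODE gene, whose canonical transcript starts at 8710022. An E-box (CACGTG, 7.15%) was found in a window of Abcc4, and a site for LRH-1 (CAAGGTCA, 1.56%), a nuclear receptor of the gut, in a window of Abcg2. A D-box (TTATGTAA, 0.938%), the CDX2 site (TTTATG, 11.9%) and direct repeats of AGGTCA with spacers of the kind used by PPAR and LXR were in none of the 11 windows.

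Abcg2 stood higher in mice on 5 and 10% RPS, and its higher level at 10% is what it was chosen for. The Abcg2 level was 49.5, 55.1, 55.7, 59.8 and 62.8 CPM in the 5 mice without RPS. At 2% RPS it was 50.7, 60.8, 62.0, 62.5 and 65.2 CPM. At 5% it was 59.5, 74.3, 75.5, 85.9 and 99.3 CPM, and at 10% it was 78.4, 92.8, 93.8, 99.5 and 101 CPM. All 5 mice on 10% RPS lay above all 5 mice on 0% and all 5 on 2%, whereas the 5% mice overlapped every other diet and had the widest spread. The means were 56.6 ± 5.07 CPM (SD, n = 5) at 0%, 60.2 ± 5.56 at 2%, 78.9 ± 14.8 at 5% and 93.0 ± 8.89 at 10%. Between neighbouring diets, 0 and 2% RPS and likewise 5 and 10% RPS overlapped.

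**Figure D1:**
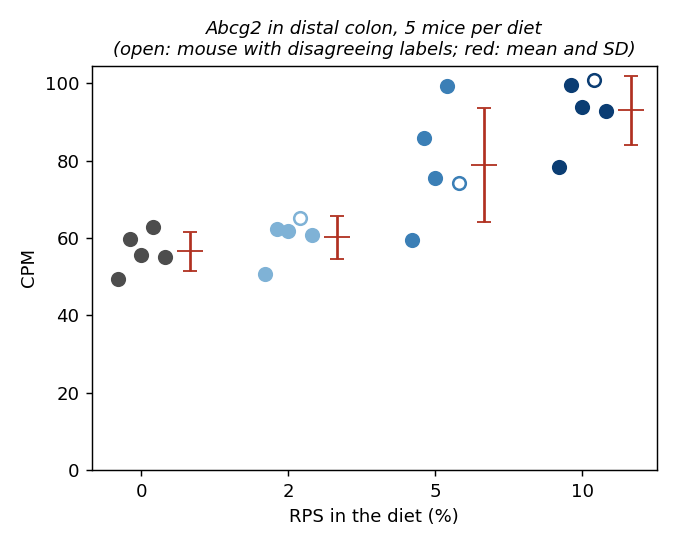
Abcg2 level in CPM (vertical axis) for each mouse against the RPS content of the diet in percent (horizontal axis), with 5 mice per diet. Red bars give the mean and SD, and open points are the 3 mice with disagreeing labels. The 10% RPS mice sit between 78.4 and 101 CPM and the 0% mice between 49.5 and 62.8 CPM.

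As log2 fold changes against 0% RPS, Abcg2 stood at 0.09 ± 0.11 (SE) at 2%, 0.48 ± 0.11 at 5% and 0.72 ± 0.11 at 10% RPS. Across all genes tested, 1.13% had every 10% mouse above every 0% mouse and 1.15% had every 10% mouse below. Such a share was not counted for 10 against 2% RPS. By edgeR's quasi-likelihood test a gene was called at a Benjamini-Hochberg adjusted p of at most 0.05 and a fold change of at least 1.5, and 0.0391% of 17893 genes, 7 genes, were called at 10 against 0% RPS. Abcg2 was among these 7, which repeats the choice of the gene and is no further evidence. The fold change of 10 against 0% RPS was 0.60 when mice were grouped by the treatment label and 0.70 without the 3 mice whose labels disagree, and in both settings edgeR called none of the genes, Abcg2 included.

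Between the 2 middle diets, Abcg2 stood 0.39 ± 0.11 higher at 5% than at 2% RPS on the log2 scale. The 5 and 2% mice overlapped, since the lowest 5% mouse, at 59.5 CPM, lay below 4 of the 5 mice on 2%. By edgeR none of the 17893 genes was called in this contrast (0%), Abcg2 included, while 6.53% had an unadjusted p under 0.05 and DESeq2 called 1 gene. The difference was 0.44 without the 3 mice with disagreeing labels and 0.29 without mouse RS10_721, the mouse with pancreatic RNA.

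Abcg5 and Abcg8, the partners of the transporter that returns plant sterols and cholesterol to the gut lumen, stood lower in mice on the higher RPS diets. The Abcg5 level was 15.5, 19.8, 22.8, 25.6 and 34.9 CPM at 0% RPS, and 17.2, 20.03, 21.1, 21.9 and 31.1 CPM at 2%. At 5% it was 6.36, 8.32, 9.68, 16.3 and 27.5 CPM, and at 10% it was 8.36, 8.93, 11.3, 13.9 and 18.01 CPM. Mice at 0 and 2% RPS overlapped widely, 4 of 5 mice at 10% lay below every mouse at 0%, and at 5% 3 mice lay below every mouse at 0% while mouse RS10_724, at 27.5 CPM, lay above 4 of them. The mean was 23.7 ± 7.30 CPM at 0% and 12.1 ± 3.96 CPM at 10% RPS (SD, n = 5 each).

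The Abcg8 level was 5.22, 7.38, 7.85, 9.49 and 14.8 CPM at 0% RPS, and 5.97, 6.42, 9.44, 10.8 and 11.3 CPM at 2%. At 5% it was 2.80, 3.71, 4.82, 6.63 and 10.5 CPM, and at 10% it was 3.84, 4.03, 5.25, 6.35 and 6.91 CPM. The diets overlapped for Abcg8, and mouse RS10_724 was again the highest of the 5% mice. The means were 8.96 ± 3.63 CPM at 0% and 5.28 ± 1.36 CPM at 10% RPS.

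**Figure D2:**
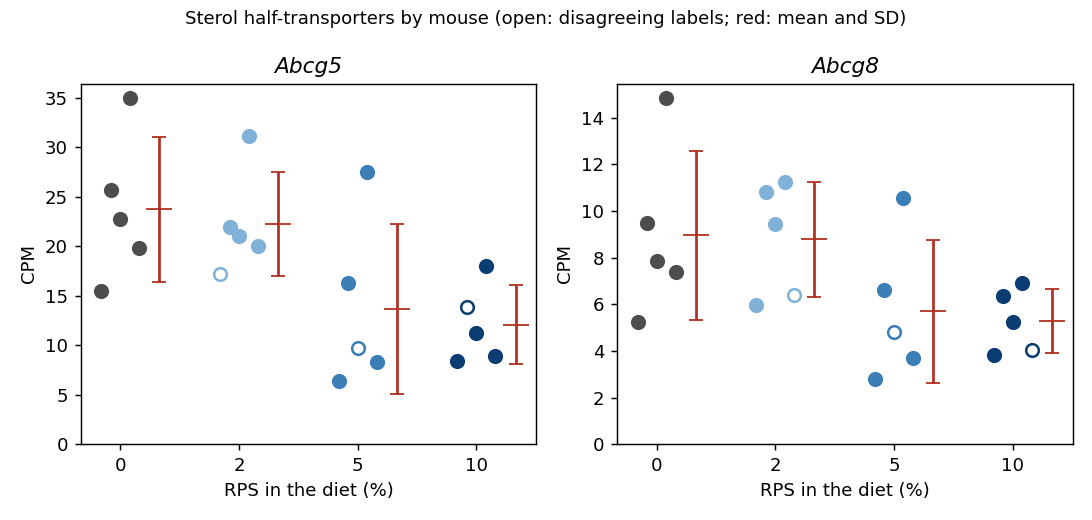
Levels of Abcg5 (left) and Abcg8 (right) in CPM for each mouse against RPS in the diet in percent, with 5 mice per diet. Red bars give the mean and SD, and open points are the mice with disagreeing labels. Abcg5 sits between 15.5 and 34.9 CPM at 0% RPS and between 8.36 and 18.01 CPM at 10%, with 1 mouse at 27.5 CPM among those on 5%.

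At 10 against 0% RPS the log2 fold change of Abcg5 was -0.98 ± 0.34 (95% interval -1.69 to -0.26) and that of Abcg8 was -0.77 ± 0.32 (95% interval -1.44 to -0.10). Neither passed over all genes, with an edgeR adjusted p of 0.185 for Abcg5 and 0.263 for Abcg8. Both exceeded the fold threshold of 1.5 without passing the test. The trend fit, a straight line of log2 level on RPS percent, called 2.1% of all genes by edgeR and 6.02% by DESeq2 at an adjusted p of at most 0.05. Over the span of 10% RPS the fitted change of Abcg5 was -1.06 ± 0.32 (edgeR adjusted p = 0.0756, DESeq2 adjusted p = 0.0275) and that of Abcg8 was -0.86 ± 0.30 (0.121 and 0.0496). The call for this pair thus depended on the tool. Without mouse RS10_727 on 10% RPS, the shallowest library, edgeR called the trend of Abcg5 (adjusted p = 0.0318) but not that of Abcg8 (0.0701).

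The annotated exons of Abcg5 and Abcg8 share 108 bases, of 3549 and 3850 exon bases, although their canonical transcripts share 0. The kit was stranded, but whether strand was used in counting is not given in the sources used here, and the part of such reads in the likeness of the pair was not tested.

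Abcg1, which passes cholesterol from cells such as macrophages to lipoproteins, showed a different order of diets. Its level was 9.97, 10.8, 11.03, 17.7 and 19.1 CPM at 0% RPS, and 11.4, 13.0, 17.5, 18.7 and 19.7 CPM at 2%. At 5% it was 11.4, 12.3, 13.1, 18.2 and 22.5 CPM, and at 10% it was 8.07, 9.77, 9.94, 11.9 and 13.1 CPM. The 10% mice were the lowest on average, at 10.6 ± 1.97 CPM against 13.7 ± 4.32 CPM at 0%, but overlapped all diets. The log2 fold change at 10 against 0% RPS was -0.38 ± 0.22 (edgeR adjusted p = 0.425), with a 95% interval from -0.84 to 0.08.

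The multidrug pumps came next, and their levels were compared per kilobase of the canonical transcript. Abcb1a, the main gene for P-glycoprotein in mouse intestine, was the most abundant member at 48.0 CPM per kb over the 20 mice. Abcb1b, its close paralogue, stood at 0.621 CPM per kb. The pair shares sequence, since 16.8% of all 50-base words of the Abcb1a transcript and 17.2% of those of Abcb1b also occur in another gene. Reads from such words cannot be assigned with certainty, so the low Abcb1b level in particular is uncertain. For the other 8 members at most 0.321% of words were shared.

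The Abcb1a level was 236, 238, 262, 283 and 295 CPM at 0% RPS, and 206, 219, 230.1, 236 and 245 CPM at 2%. At 5% it was 197, 205, 214, 231 and 267 CPM, and at 10% it was 217, 239.8, 246, 291 and 296 CPM. The middle diets had the lower means, and the mice of all diets overlapped. The log2 fold changes against 0% RPS were -0.21 ± 0.10 at 2%, -0.24 ± 0.10 at 5% and -0.03 ± 0.10 at 10%, with edgeR adjusted p of 0.9997, 0.465 and 0.927. Abcb1b lay between 2.18 and 4.16 CPM in all 20 mice. Its values were 2.21, 2.35, 3.20, 3.45 and 4.16 CPM at 0% and 2.18, 2.36, 2.60, 2.71 and 3.65 CPM at 10% RPS, with overlap throughout.

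Among the ABCC pumps, which carry glutathione, glucuronide and sulfate conjugates, Abcc3 was the most abundant at 34.9 CPM per kb. ABCC3 sits on the blood side of the epithelium and takes out glucuronides and bile acids. Its level was 144, 165, 167, 176 and 211 CPM at 0% RPS, and 144, 163, 163, 172 and 182 CPM at 2%. At 5% it was 179, 182, 203, 206 and 217 CPM, and at 10% it was 166, 182, 193, 221 and 231 CPM. The 5 and 10% mice lay somewhat higher, with means of 197 ± 16.2 and 199 ± 26.8 CPM against 173 ± 24.3 CPM at 0%, and overlapped the 0% mice. The log2 fold change at 10 against 0% RPS was 0.20 ± 0.10 (95% interval -0.0037 to 0.41, edgeR adjusted p = 0.337). The Abcc3 trend of 0.26 ± 0.10 over 10% RPS did not pass (edgeR adjusted p = 0.144, DESeq2 adjusted p = 0.0972), except without mouse RS10_727, where the edgeR adjusted p was 0.0427.

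Abcc1, a broadly expressed conjugate pump, differed little between diets. Its level was 44.8, 46.4, 51.8, 53.5 and 56.0 CPM at 0% RPS and 44.0, 47.4, 48.3, 50.5 and 55.0 CPM at 10%, and lay between 46.5 and 58.8 CPM at 2 and 5%. The log2 fold change at 10 against 0% RPS was -0.04 ± 0.08, with a 95% interval from -0.21 to 0.12, inside 1.5-fold in both directions. The intervals of Abcb1a (-0.22 to 0.17), Abcb1b (-0.54 to 0.17), Abcc3 and Abcc4 (-0.06 to 0.34) also lay inside it, and that of Abcc2 (-0.65 to 0.20) did not.

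Abcc4, a pump for cyclic nucleotides and conjugates, was at 20.3, 21.5, 21.7, 23.7 and 25.2 CPM at 0% RPS and at 20.3, 21.6, 26.2, 27.6 and 27.9 CPM at 10%. In the mice on 2 and 5% RPS it lay between 19.6 and 25.3 CPM. The 3 highest mice of all were on 10% RPS, but the diets overlapped, and the log2 fold change at 10 against 0% was 0.14 ± 0.10 (edgeR adjusted p = 0.518). Abcc2, a pump of the luminal membrane for conjugated bile pigments, was the least abundant member at 0.572 CPM per kb. Its level was 3.20, 4.08, 4.64, 5.76 and 5.96 CPM at 0% RPS and 3.46, 3.84, 3.92, 4.23 and 4.84 CPM at 10%, with overlap and a log2 fold change of -0.22 ± 0.20 (edgeR adjusted p = 0.648).

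**Figure D3:**
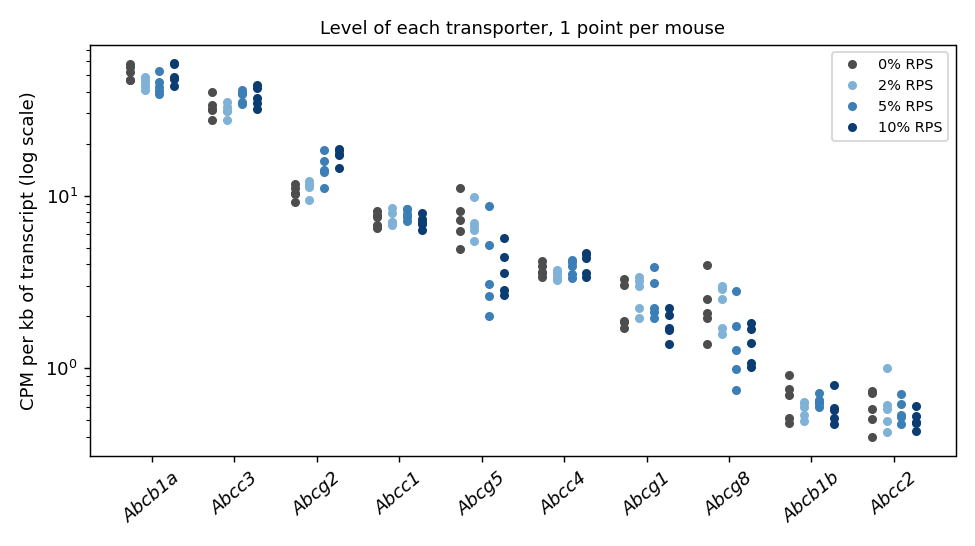
Level of each member in CPM per kb of its canonical transcript (vertical axis, log scale), 1 point per mouse, coloured by diet, genes ordered by their mean over the 20 mice. Abcb1a and Abcc3 lead at 48.0 and 34.9 CPM per kb, Abcg2 follows at 13.4, and Abcb1b and Abcc2 are lowest at 0.621 and 0.572.

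Ordered by level per kb, Abcb1a and Abcc3 were followed by Abcg2 at 13.4, Abcc1 at 7.43, Abcg5 at 5.67, Abcc4 at 3.78, Abcg1 at 2.39 and Abcg8 at 1.91 CPM per kb. The order changed with diet in the middle of the list. At 0% RPS Abcg5 stood at 7.504 ± 2.31 and Abcc1 at 7.32 ± 0.69 CPM per kb and could not be ordered beyond their spread. At 10% RPS Abcg5 stood at 3.82 ± 1.25 CPM per kb, beside Abcc4 at 4.11 ± 0.59 and below Abcc1 at 7.10 ± 0.59. Abcb1b and Abcc2 did not differ beyond their spread at any diet, nor did Abcg1 and Abcg8 at 0% RPS.

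Of the 9 members other than Abcg2, 0 were called by edgeR at any RPS level against 0% RPS, where the share of all genes called was 0.0391% at 10% RPS and 0% at both 5% and 2% RPS. At an unadjusted p under 0.05 there were 2 of the 9 at 10%, 2 at 5% and 1 at 2% RPS, beside 15.2%, 9.19% and 1.41% of all genes. DESeq2 also called 0 of the 9, beside 1.21% of all genes at 10%, 0.156% at 5% and 0.00386% at 2% RPS. The median log2 fold change of the 9 at 10 against 0% RPS was -0.18, beside -0.015 over all genes tested. The edgeR trend was called for 0 of the 9, beside 2.1% of all genes, and 4 of the 9 had p under 0.05 before adjustment, beside 19.1% of all genes. The DESeq2 trend was called for 2, Abcg5 and Abcg8, beside 6.02% of all genes. At 10 against 0% RPS the fold threshold of 1.5 corresponds to 0.58 on the log2 scale. Abcg2 at 0.72 and Abcg8 at -0.77 were the members nearest to it among those past it, and Abcg1 at -0.38 was the nearest among those short of it.

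**Figure D4:**
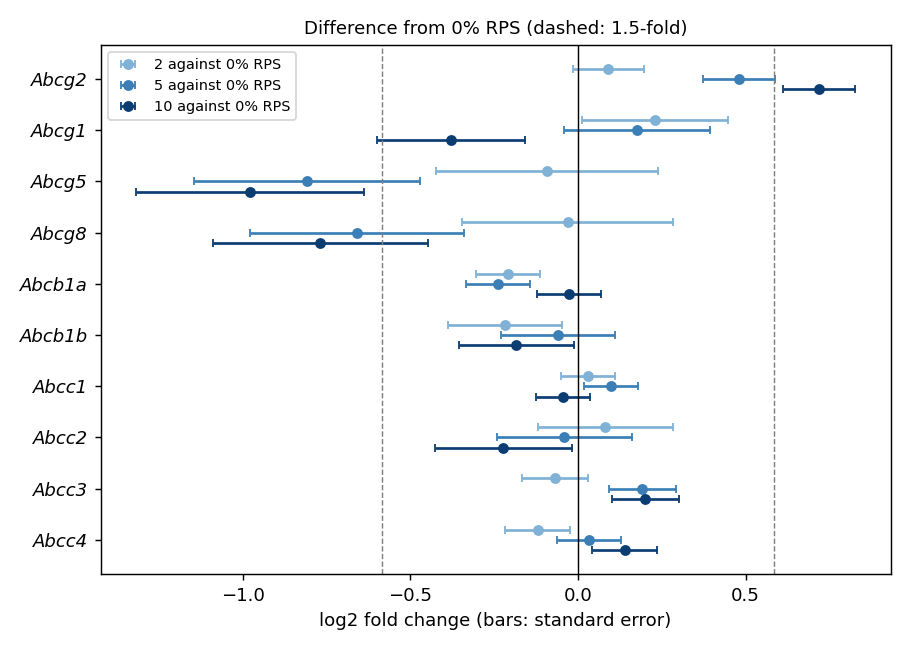
Log2 fold change of each member against 0% RPS (horizontal axis) at 2, 5 and 10% RPS, with bars for the standard error and dashed lines at a 1.5-fold difference. Abcg2 reaches 0.72 at 10% RPS, Abcg5 and Abcg8 reach -0.98 and -0.77, and the other 7 members stay within the dashed lines at every level.

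Single mice of the same diet also differed, and there Abcg2 and the sterol pair moved in opposite directions. Log2 levels were taken as deviations from the diet mean, which removes the difference between diets by which Abcg2 was chosen, and each of the 9 other members was set against Abcg2 over the 20 mice, with 100000 permutations within diets. For Abcg5, Pearson's r was -0.81 (permutation p = 0.00053, adjusted over the 9 relations 0.00445) and Spearman's rho was -0.68 (permutation p = 0.00659, adjusted 0.0297). For Abcg8, r was -0.77 (permutation p = 0.00099, adjusted 0.00445) and rho was -0.77 (permutation p = 0.00112, adjusted 0.0101). For Abcg1, r was -0.62 (permutation p = 0.00829, adjusted 0.0249), but rho was -0.48 (permutation p = 0.0612, adjusted 0.184). The share of all genes with an r of this size was not counted, so the relations are not shown to be particular to the members. Genes outside the panel also had a large r with Abcg2 within diets, such as 1810065E05Rik at 0.89 and Dnajc12 at -0.73.

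Mice RS10_721 and RS10_724, both on 5% RPS, lay farthest from the median of Abcg2, at opposite ends. Mouse RS10_721 had the highest Abcg2 of its diet with the lowest Abcg5 and Abcg8, and mouse RS10_724 had the reverse. Without both, r was -0.64 for Abcg5 (permutation p = 0.0113), -0.60 for Abcg8 (permutation p = 0.0165) and -0.47 for Abcg1 (permutation p = 0.0771). These p-values are unadjusted. None of them stays at or below 0.05 once adjusted over the 9 relations, so no relation passes without the 2 mice. All 3 relations rested in part on those mice, and that of Abcg1 exceeded 0.05 even before adjustment. Leaving out any single mouse kept the adjusted p of Abcg5 and Abcg8 at 0.0292 or less. For Abcg1 the adjusted p exceeded 0.05 without any of 5 single mice, with values up to 0.129, and was 0.0585 without the 3 mice with disagreeing labels. Without those 3 mice r was -0.89 for Abcg5 and -0.77 for Abcg8.

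**Figure D5:**
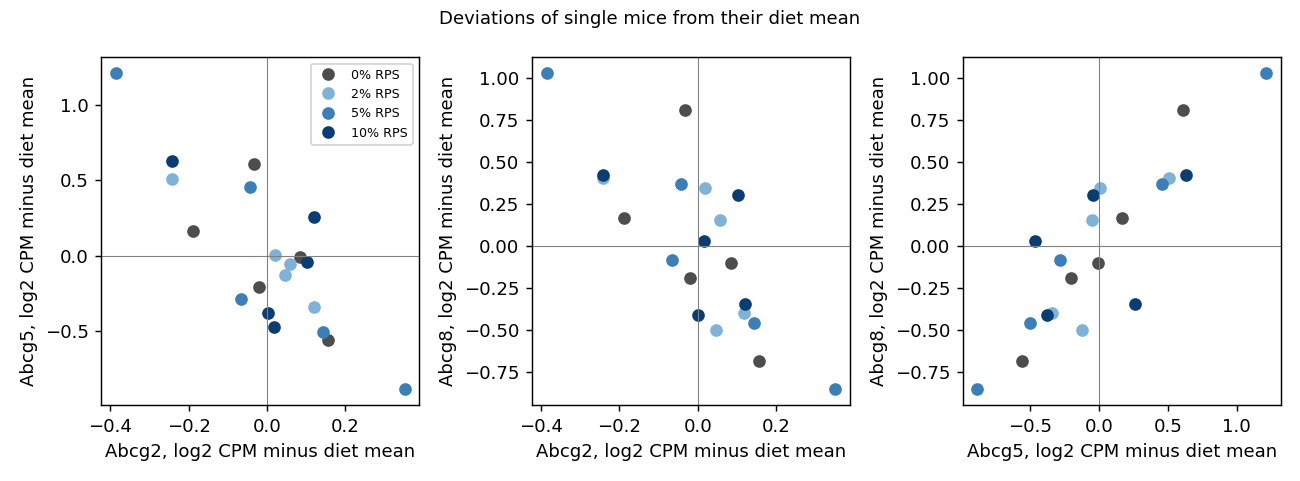
Deviation of each mouse from its diet mean in log2 CPM, for Abcg5 against Abcg2 (left), Abcg8 against Abcg2 (middle) and Abcg8 against Abcg5 (right), 1 point per mouse, coloured by diet. Mice above their diet mean in Abcg2 tend to lie below it in Abcg5 and Abcg8 (r = -0.81 and -0.77), and Abcg5 and Abcg8 deviate in the same direction (r = 0.87).

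For the other 6 members r with Abcg2 lay between -0.22 for Abcc1 and 0.41 for Abcc3, and none passed (adjusted p from 0.139 to 0.953 over the 9 relations). Among all 45 pairs of members, 3 passed after adjustment over the 45, namely Abcg2 with Abcg5, Abcg2 with Abcg8, and Abcg5 with Abcg8, a comparison added after the values were seen. The last pair had the strongest relation, with r = 0.87 and rho = 0.86 (permutation p = 7.00e-05 for each, adjusted 0.00315 for r), and r = 0.78 without the 2 mice farthest from the median of Abcg5. Over the 20 mice with diet differences kept, the correlation with Abcg2 was -0.86 for Abcg5, -0.79 for Abcg8 and 0.65 for Abcc3, given as a description.

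Surface colonocyte markers moved with Abcg2 and against the sterol pair. Their summed level lay between 4907 and 6056 CPM at 0%, 4900.3 and 5765 CPM at 2%, 5339.9 and 7734 CPM at 5% and 6882 and 8093 CPM at 10% RPS. Over all genes 2.1% had an edgeR trend in either direction, and 205 of 17893 rose. Of the 10 markers 5 rose with RPS by that trend. These were Car4, a carbonic anhydrase, Aqp8, a water channel, Slc26a3, the chloride-bicarbonate exchanger, Krt20, a keratin of the upper crypt, and Ceacam20. Within diets the log2 of the marker sum had an r of 0.75 with Abcg2, -0.69 with Abcg5, -0.58 with Abcg8 and -0.53 with Abcg1, as a description over the 20 mice. Relative to each 1000 CPM of these markers, Abcg2 stood at 10.6 ± 1.24 CPM at 0%, 10.99 ± 0.58 at 2%, 12.0 ± 1.16 at 5% and 12.1 ± 0.58 at 10% RPS (SD, n = 5). On that scale the 0 and 10% mice overlapped, at 8.92 to 12.2 and 11.4 to 13.0. Abcg5 on the same scale was 4.44 ± 1.37 CPM at 0% and 1.60 ± 0.63 CPM at 10% RPS. The part of the surface cells in these differences was not tested.

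Markers of other cell types gave few edgeR calls. All 8 macrophage markers had a log2 fold change below 0 at 10 against 0% RPS, with a median of -0.33, but edgeR called 0. Before adjustment 4 of the 8 had p under 0.05, beside 15.2% of all genes, and DESeq2 called 1, Cd68, beside 1.21% of all genes. At 5 against 0% RPS all 8 again lay below 0, with a median of -0.54, and edgeR called 0. There all 8 had p under 0.05 before adjustment, beside 9.19% of all genes, and DESeq2 called 2, beside 0.156%. At 2 against 0% RPS 3 of the 8 had such a p, beside 1.41% of all genes. The summed level of the macrophage markers overlapped at 274 to 517 CPM at 0% and 259 to 349 CPM at 10%. Of 8 endothelial markers 1 fell by the edgeR trend, Cldn5, a tight junction protein, beside 2.1% of all genes with a trend in either direction. The DESeq2 trend was called for 3 of these 8, beside 6.02% of all genes. Before adjustment 4 had an edgeR trend p under 0.05, beside 19.1%. Of the 8 lymphocyte markers only 5 had a log2 fold change above 0 at 10 against 0% RPS, with a median of 0.15 over the 8. Before adjustment 1 had p under 0.05, beside 15.2% of all genes. The summed level of the 8 lymphocyte markers had medians of 153, 224, 343 and 496 CPM at 0, 2, 5 and 10% RPS, with overlap between 81.2 to 682 CPM at 0% and 345 to 770 CPM at 10%. Within diets the log2 of that sum had an r of 0.32 with Abcg2, -0.11 with Abcg5 and -0.24 with Abcg8, as a description over the 20 mice. No gene of the goblet cell, crypt, smooth muscle, fibroblast, macrophage, lymphocyte, neuron and glia or pancreatic lists had an edgeR trend. Before adjustment, the trend p was under 0.05 for 3 of 6 neuron and glia, 3 of 8 goblet cell and 3 of 8 macrophage markers. It was so for 2 of 8 lymphocyte and 1 of 7 tested crypt markers and 0 in the other 3 lists, beside 19.1% of all genes. The neuron and glia markers had a median trend of -0.29 over 10% RPS, with 1 of 6 above 0. DESeq2 called a single trend in each of the crypt, goblet cell, macrophage and neuron and glia lists, beside 6.02% of all genes. None of the defining markers was at 0 throughout a diet. The part of these cells in the levels of the members was not tested.

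The wider ABC family was read from a list of 42 genes, of which 39 were in the table and 36 were tested. None was called at 10 against 0% RPS by edgeR. Before adjustment 12 had p under 0.05, beside 15.2% of all genes, and DESeq2 called 1, Abca13, beside 1.21% of all genes. By edgeR 3 of 36 had a trend, 2 rising and 1 falling, against 2.1% of all genes. Abcd3, which brings long-chain acyl-CoA into peroxisomes, rose from 127 ± 9.59 CPM at 0% to 165 ± 8.67 CPM at 10% RPS, with a trend of 0.41 ± 0.09 over 10% RPS (edgeR adjusted p = 0.0213). Abca13, a large lipid transporter, rose from 0.582 ± 0.10 to 1.32 ± 0.82 CPM (trend adjusted p = 0.0476), and Abcd4, which handles cobalamin in lysosomes, fell from 26.4 ± 2.82 to 21.5 ± 1.45 CPM (0.0372). None of the 3 trends passed with the treatment label, without the 3 mice with disagreeing labels, with a clock gene score as a covariate, or without mouse RS10_729 or RS10_784. Leaving out mouse RS10_727 gave 6 trends. Abca13 averaged under 1 CPM and stood 1.19 ± 0.35 higher at 10 than at 0% RPS on the log2 scale. Among the 31 family genes averaging at least 1 CPM, those with the largest differences at 10 against 0% RPS besides Abcd3 were Abcc6 (-0.62 ± 0.23), Abca9 (-0.44 ± 0.18) and Abca5 (-0.42 ± 0.18), and none of these passed. At 10 against 0% RPS the 36 genes had a median of 0.023 on the log2 scale, beside -0.015 over all genes.

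Of 25 transcription factors known to act on efflux pump genes, 1 had an edgeR trend, beside 2.1% of all genes, and 3 had a DESeq2 trend, beside 6.02%. Hif1a, the oxygen-sensitive factor that also acts on Abcg2, rose from 127 ± 20.1 CPM at 0% to 193 ± 29.0 CPM at 10% RPS, with a trend of 0.69 ± 0.15 on the log2 scale (adjusted p = 0.0237). The target lists of the xenobiotic and sterol receptors held no edgeR trend. Over all genes, 19.1% had a trend p under 0.05 before adjustment and DESeq2 called 6.02%. Before adjustment, p was under 0.05 for 3 of 6 tested aryl hydrocarbon receptor targets and 6 of 12 NRF2 targets, and DESeq2 called 0 in both lists. Among PXR and CAR targets 3 of 7 had such a p and DESeq2 called 1. Among LXR targets, a list that holds Abcg1, Abcg5 and Abcg8 themselves, 5 of 12 had such a p and DESeq2 called 3. The median trend over 10% RPS was 0.16 for the NRF2 list, -0.35 for the PXR and CAR list and -0.33 for the LXR list, beside -0.016 over all genes.

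Of 22 tested conjugating enzymes, which make substrates for these pumps, 2 had an edgeR trend, beside 2.1% of all genes, and 3 a DESeq2 trend, beside 6.02%. Sult1b1, a sulfotransferase, rose from 185 ± 19.4 to 235 ± 21.0 CPM between 0 and 10% RPS (edgeR trend adjusted p = 0.0299), and Sult1c2, another sulfotransferase, fell from 35.2 ± 9.002 to 21.4 ± 3.42 CPM (0.019). Of 11 tested genes for urate and haem, both known cargoes of ABCG2, 1 had an edgeR trend, beside 2.1% of all genes. The DESeq2 trend was called for 3 of these 11, beside 6.02% of all genes. Slc17a1, an anion transporter that carries urate, fell from 3.85 ± 0.74 to 2.38 ± 0.81 CPM (0.0322). None of 11 genes for sterol uptake and transfer had a trend by edgeR or DESeq2, beside 2.1% and 6.02% of all genes. Before adjustment 2 of the 11 had an edgeR trend p under 0.05, beside 19.1% of all genes. The sterol efflux genes Abcg5 and Abcg8 were called by DESeq2 alone. With so few genes, uptake and efflux genes are not shown to differ.

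The genes whose pattern was most like that of Abcg2 were ranked by Pearson's r of log2 CPM over the 20 mice among those averaging 1 CPM or more, as a description. The first 8 were 1810065E05Rik (r = 0.95), Mgam2-ps (0.94), Heph (0.93), Chp1 (0.91), Pls1 (0.91), Slc9a3 (0.90), Mgat4c (0.90) and Fa2h (0.89). With diet means removed their r with Abcg2 ran from 0.71 for Fa2h to 0.89 for 1810065E05Rik. Heph encodes a copper-containing iron oxidase of the basolateral membrane, Pls1 a protein that bundles actin in microvilli, Slc9a3 the luminal sodium-hydrogen exchanger and Chp1 a calcium-binding partner of such exchangers. Mean levels of Slc9a3 were 8.23 CPM at 0%, 13.3 at 2%, 77.1 at 5% and 90.9 CPM at 10% RPS, and those of 1810065E05Rik were 10.6, 12.1, 23.1 and 32.1 CPM. At the opposite end of the 15231 ranked genes, Abcg5 was number 15225 and Abcg8 number 15184, while Abcc3, the member most like Abcg2, was number 495.

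The distance of Abcg2 to other pumps, taken within each mouse, differed between the mice of different diets. The Abcg2 level lay 1.30 ± 0.52 log2 units above Abcg5 at 0% RPS and 2.99 ± 0.54 above it at 10% (SD, n = 5). Against Abcb1a it lay -2.21 ± 0.24 log2 units off at 0% and -1.47 ± 0.21 at 10% RPS, and against Abcc1 0.16 ± 0.22 and 0.92 ± 0.24. Against Abcc3 the distance was -1.60 ± 0.27 and -1.09 ± 0.15. These distances contain the difference by which Abcg2 was chosen and are a description in CPM, not per length.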

How the data were processed

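DC RNA of 20 mice was sequenced as single-end 50-base reads. The authors trimmed bases of low quality, mapped reads to GRCm39 in CLC Genomics Workbench and deposited raw counts of reads per gene. The annotation release, the strand setting and the rule for reads with more than 1 match are not given in the sources used here. Of 26619 identifiers 26338 matched GENCODE vM39. Counts were tested in edgeR 4.0.16 (R 4.3.3) with TMM scaling, filterByExpr (minimum count 10), 1 fit over the 4 diets and quasi-likelihood tests adjusted over 17893 genes. DESeq2 1.42.0 was the alternative. CPM used TMM library sizes, and log2 CPM a prior count of 2. Libraries held 18429493 to 34974230 counted reads. The script was checked on simulated counts. No 2 mice of a diet agreed within sampling noise. Members and lists were chosen with earlier results of these data known, so a planned test of Abcg2 at 5 against 2% RPS is not reported. The text names all 10 members, listed genes with a trend or call, the 4 family genes and the 8 genes given by size and likeness. Each diet was 1 group of separate mice, and the sources used here do not say which mice shared a cage.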

Additional observations from a re-analysis of the deposited data

How the results depend on the processing

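Alternatives were DESeq2, RLE scaling, no filter on low counts, only the diets compared, the treatment label, removal of the 3 mice with disagreeing labels, a clock gene score as a covariate, and each mouse left out. The log2 fold change of Abcg2 at 10 against 0% RPS lay between 0.60 and 0.73 in the first 7 and between 0.67 and 0.78 with single mice left out. Its difference of 5 against 2% RPS lay between 0.39 and 0.44 and between 0.29 and 0.47. The count of other members called against 0% RPS was 0 in all of these. The count with a trend was 2 by DESeq2 and 0 to 2 with single mice left out. The count of other ABC family genes with a trend was 0 with the treatment label, 0 without the 3 mice, 0 with the clock covariate and 0 to 6 with single mice left out. Over all genes, the 7 calls became 242 by DESeq2, 13 with RLE scaling, 4 with only the diets compared, 0 with the treatment label and 0 without the 3 mice, and 5 to 188 with single mice left out. The relations with Abcg2 within diets that passed numbered 2 or 3, but none passed without mice RS10_721 and RS10_724 together. The causes were not tested.

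Fold changes that never passed crossed zero in some settings. Without the 3 mice, Abcg8 at 2% against 0% RPS was 0.064 and Abcc2 at 5% was 0.026, and with the clock covariate Abcb1a at 10% was 0.0090. With single mice left out, the ranges were -0.078 to 0.031 for Abcb1a at 10%, -0.16 to 0.069 for Abcb1b at 5%, -0.025 to 0.066 for Abcc1 at 2%, -0.16 to 0.19 for Abcc2 at 2% and -0.15 to 0.052 at 5%, -0.12 to 0.015 for Abcc3 at 2%, -0.0079 to 0.076 for Abcc4 at 5%, -0.00018 to 0.32 for Abcg1 at 5%, -0.24 to 0.089 for Abcg5 at 2% and -0.17 to 0.23 for Abcg8 at 2%. Precision did not follow depth alone, since the interval of Abcb1b at 10 against 0% RPS was narrower than that of Abcg5, which had more reads. No paired analysis was possible because each mouse number belongs to a single animal.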
